A study of Mus musculus with 3 samples.

Results

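The 5 genes described here, Irgm1, Irgm2, Igtp, Iigp1 and Tgtp1, are members of the immunity-related GTPase (IRG) family of the mouse. They were taken by name from the GENCODE M1 annotation of the mm9 assembly, 5 of the 22350 protein-coding genes on chromosomes 1 to 19 and X. The data are 3 libraries from primary macrophages that were grown from the bone marrow of female Fvb mice and used on day 7 of differentiation. In 2 of them chromatin was immunoprecipitated (ChIP-Seq) with the antibody ab5131 against RNA polymerase II (Pol_II) phosphorylated at Ser5 of its C-terminal repeat, 1 from untreated cells ("Ser5 untreated") and 1 from cells given 10 ng/ml of lipopolysaccharide (LPS, a bacterial cell wall component) for 2 h ("Ser5 LPS"), and the other library is input DNA of untreated cells. The age of the mice, the number of animals per culture and the genotype beyond the strain are not given in the sources used here, and there is no input library of LPS-treated cells. With 1 library per condition, replicate error could not be measured and nothing was tested. The 95% intervals given below cover counting error only.

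IRG proteins are large GTPases that are induced by interferons and act inside the cell against bacteria and parasites that live in vacuoles. Irgm1, Irgm2 and Igtp (also called Irgm3) belong to the GMS subgroup, which sits on the membranes of the cell and holds the other subgroup in check. Iigp1 (Irga6) and Tgtp1 (Irgb6) belong to that other subgroup, the GKS proteins, which gather on the vacuole of a parasite such as Toxoplasma gondii and break it open. In macrophages LPS acts through the receptor Tlr4, whose signalling leads to type I interferon, and interferon-activated transcription factors bind 2 kinds of DNA element, GAS and ISRE. Phosphorylation of Ser5 marks Pol_II that has begun transcription.

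Of the 5 genes, 4 lie on chromosome 11 in mm9. Irgm1 spans chr11:48675470-48685185 on the minus strand, and Tgtp1 lies 113643 bp away at chr11:48798829-48807674, also on the minus strand, inside the annotated span of the plus-strand gene Olfr56 and overlapping Gm12185. Igtp (chr11:58013058-58021093) and Irgm2 (chr11:58028530-58036282) are neighbours on the plus strand with 7436 bp between them, and no gene is annotated in that interval. Iigp1 lies on another chromosome. The annotation gives 4 transcripts to Irgm1, 2 to Irgm2, 3 to Igtp, 2 to Iigp1 and 3 to Tgtp1. The transcription start site (TSS) was taken as the 5′ end of the gene, and the TSS of the transcript with the longest coding sequence lies 309 bp inside it in Irgm1, 1959 bp in Irgm2 and 1914 bp in Tgtp1. In Igtp and Iigp1 both are the same base.

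The upstream sequences of the chromosome 11 genes are shown because all of them hold letters of an interferon element just before an annotated start. The windows searched were the 250 bases before each start on both strands, for ISRE letters (GAAA, any 2 bases, GAAA) and GAS letters (TTCNNNGAA). Matches are in capitals and the sequences run 5′ to 3′ on the strand of the gene, from mm9. They are Irgm1 at chr11:48684923-48684976 (minus strand, before the start at 48684876), Irgm2 at chr11:58028380-58028450 (plus strand), Igtp at chr11:58012989-58013057 (plus strand), Tgtp1 at chr11:48805790-48805860 (minus strand, before the start of the longest coding transcript at 48805760), Tgtp1 at chr11:48807734-48807792 (minus strand, before the 5′ end of the gene), and for comparison the near-identical paralog Tgtp2 at chr11:48877749-48877819 (minus strand).
Irgm1: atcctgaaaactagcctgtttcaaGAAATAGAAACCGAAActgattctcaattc
Irgm2: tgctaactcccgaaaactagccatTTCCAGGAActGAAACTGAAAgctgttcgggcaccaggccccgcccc
Igtp: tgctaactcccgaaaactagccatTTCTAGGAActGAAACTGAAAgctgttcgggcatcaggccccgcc
Tgtp1 (longest coding transcript): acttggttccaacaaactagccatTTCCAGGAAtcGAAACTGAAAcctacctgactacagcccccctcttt
Tgtp1 (5′ end of the gene): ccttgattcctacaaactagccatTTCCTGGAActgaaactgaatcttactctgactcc
Tgtp2: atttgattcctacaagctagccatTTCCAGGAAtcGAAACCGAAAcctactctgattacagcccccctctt

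Irgm2, Igtp, Tgtp1 and Tgtp2 each had GAS letters followed after 2 bases by ISRE letters. The ISRE letters began 115 bases before the start in Irgm2, 34 bases in Igtp, 65 bases in Tgtp1 (longest coding transcript) and 78 bases in Tgtp2. Irgm1 had a pair of overlapping ISRE matches, which began 76 and 70 bases before its coding start, and no GAS letters there; this stretch lies in an exon of a non-coding Irgm1 transcript. At the 5′ end of Tgtp1 the GAS letters were present, while the ISRE letters had no match in that window. In Iigp1, whose sequence is not printed here, ISRE letters matched beginning 215 and 157 bases before the start, and GAS letters 144 bases before it. Over all 22350 protein-coding promoters of the same length, taken once per gene before its 5′ end, 3.37% held the ISRE letters, 6.83% the GAS letters and 0.452% both. In that same window 3 of the 5 genes held ISRE letters and 4 held GAS letters, Irgm1 having neither, and matches before inner starts have no like share to be set against. No match lay before the inner start of Irgm2. Around the GAS letters, 49 of 50 bases were the same in Irgm2 and Igtp, 36 of 50 in Irgm2 and Tgtp1 (longest coding transcript), and 42 of 50 in that Tgtp1 sequence and Tgtp2. These are matches of letters, not tested sites.

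Likeness between genes limits most counts below, since a tag was kept by the authors only if it matched 1 place in the genome with at most 2 mismatches. Tags were 45 bases long in Ser5 untreated, 30 in Ser5 LPS and 36 in the input, so the share of positions at which a tag could be kept differed between libraries. In the body of Irgm1, 91.5% of the positions were unique at 45 bases and 84.8% at 30. The values were 87.3% and 80.7% in Irgm2, and 81.1% and 70.4% in Igtp. In Iigp1 they were 50.5% and 28.8%, and in Tgtp1 14.0% and 6.49%. Of the 30-base positions in Tgtp1, 78.6% also matched Tgtp2. The Ser5 LPS library was thus the most restricted in all 5 genes, and Tgtp1 could be read at a small part of its length. The reference is not the Fvb strain, and the effect of strain differences was not measured.

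As a check of the cells, the 6 macrophage markers found had a summed body level of 4.91 in untreated and 4.10 in LPS, in tags per kb scaled to a library of 1000000 tags, beside 0.657 in input. After LPS 5 of the 6 had a ratio of 0.449 or below, and Emr1 stood at 3.01. Emr1 held 5200 of the 8358 LPS tags of the list. Itgam and Mrc1 lay below input after LPS, at 0.613 (0.510 to 0.735) and 0.181 (0.142 to 0.228) times, scaled to all tags. The summed levels of T and NK cell, B cell, granulocyte, fibroblast and erythroid markers ranged from 0.0683 to 0.432 in untreated and from 0.0894 to 0.434 in LPS. Scaled to all tags, each list lay below its own input level of 0.378 to 0.774. Outside the Ser5 peaks lay 50.2% of untreated, 46.7% of LPS and 95.5% of input tags. Scaling to those tags would raise Ser5 against input and was not done for the markers. Of their 16 genes with enough tags, Ms4a1 was 3.19 times higher and Klf1 had a ratio of 0.367, and Hbb-b1 had no tag in either Ser5 library. Unlike its list, the Klf1 body stood above input in untreated cells. It held 73 untreated and 25 input tags, or 2.89 times (1.81 to 4.75) the input level scaled to all tags. S100a8 and Cd79a, at 1.98 and 1.68 times, did not differ from input beyond counting error. All other genes of these lists lay below input in untreated cells. The part of these cell types in the results below was not tested, and in bulk libraries such as these fewer cells of a type and less signal per cell cannot be told apart.

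Irgm1, a GMS regulator whose loss makes mice highly susceptible to intracellular bacteria, had the highest level of the 5 in both Ser5 libraries. Its gene body held 53 tags in the input, 368 in Ser5 untreated and 1100 in Ser5 LPS. As levels, in tags per kb of gene scaled to a library of 1000000 tags, these are 0.724 (0.542 to 0.947), 4.97 (4.48 to 5.51) and 18.1 (17.1 to 19.2). The 3 intervals do not overlap, so Irgm1 stood above input before LPS and higher again after it. The ratio of Ser5 LPS to Ser5 untreated was 3.64 (3.23 to 4.11). Within 1 kb of the TSS there were 23, 406 and 848 tags, or levels of 1.53, 26.6 and 67.8, and the ratio was 2.55 (2.26 to 2.87). Every position of that window was unique at all 3 tag lengths, which makes it the best-read window of the 5 genes.

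Irgm2, a GMS protein found mainly on the Golgi, had a clear promoter signal but little in its body before LPS. The body held 39 input tags, 85 Ser5 untreated tags and 553 Ser5 LPS tags, or levels of 0.668 (0.475 to 0.913), 1.44 (1.15 to 1.78) and 11.4 (10.5 to 12.4). The LPS to untreated ratio was 7.93 (6.30 to 10.1). Within 1 kb of its TSS the tags numbered 11, 68 and 164, or levels of 0.730, 4.46 and 13.1, with a ratio of 2.94 (2.20 to 3.96). Untreated Ser5 was thus above input in both windows, 2.16 times (1.46 to 3.24) in the body and 6.11 times (3.21 to 12.8) at the TSS. Around the start of the longest coding transcript, further inside the gene, the tags numbered 5, 21 and 182 and the ratio was 10.6 (6.71 to 17.5), above that at the 5′ end.

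Igtp, the GMS protein of the endoplasmic reticulum and lipid droplets, had untreated body tags at the level of input. Its body held 42 input, 43 Ser5 untreated and 337 Ser5 LPS tags, or levels of 0.694 (0.500 to 0.938), 0.703 (0.508 to 0.946) and 6.71 (6.01 to 7.47). The LPS to untreated ratio was 9.55 (6.94 to 13.4). Within 1 kb of the TSS there were 6, 26 and 110 tags, or levels of 0.398, 1.71 and 8.80, with a ratio of 5.16 (3.34 to 8.24). At the TSS the untreated signal was 4.29 times (1.73 to 12.7) the input, while in the body it was 1.01 times (0.646 to 1.59). Since 50.2% of Ser5 untreated tags and 95.5% of input tags lay outside the Ser5 peaks, the value was also taken with both scaled to those tags, and in the body it was then 1.93 times (1.23 to 3.02). On that scale Iigp1 and Tgtp1, described next, had intervals that include 1, and Irgm2 stood at 4.10 times (2.77 to 6.15).

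Iigp1, a GKS effector that coats the parasite vacuole, lies on the plus strand at chr18:60535683-60552281 and had low counts in all 3 libraries. Its body of 16599 bp held 16 input tags, 17 Ser5 untreated tags and 84 Ser5 LPS tags, or levels of 0.128 (0.0731 to 0.208), 0.134 (0.0783 to 0.215) and 0.810 (0.646 to 1.00). The LPS to untreated ratio was 6.02 (3.55 to 10.8). Ser5 LPS lay above both other libraries, which did not differ beyond counting error. Within 1 kb of the TSS the tags numbered 5, 2 and 12, and the ratio of 7.31 (1.63 to 67.3) rests on 2 untreated tags. Ser5 LPS there was 2.89 times (0.949 to 10.5) input scaled to all tags, which does not pass counting error. Scaled to tags outside peaks it was 5.92 times (1.94 to 21.4).

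Tgtp1, the other GKS effector, had the fewest tags of the 5 in the gene body. Its body held 4 input tags, 3 Ser5 untreated tags and 35 Ser5 LPS tags, or levels of 0.0600 (0.0164 to 0.154), 0.0445 (0.00918 to 0.130) and 0.633 (0.441 to 0.880). The ratio was 14.2 (4.48 to 72.3), and within 1 kb of the TSS, with 4, 3 and 38 tags, it was 15.4 (4.90 to 78.2). Ser5 LPS stood apart from both other libraries in each window, though on 3 untreated tags. The windows are not separate, since both include the first 1 kb of the gene, where 27 of the 35 LPS body tags lie. With the tags of Tgtp2 added, which had 5, 2 and 17 in its body, the pair had 9, 5 and 52 tags and a ratio of 12.7 (5.10 to 40.7).

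**Figure D1:**
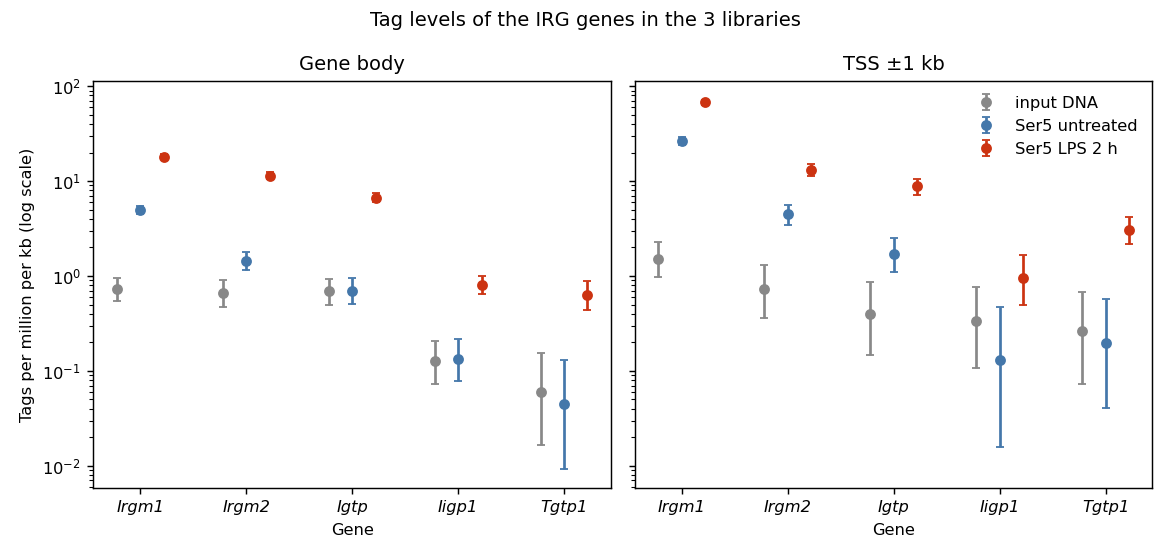
Levels, in tags per kb scaled to a library of 1000000 tags (log scale), in the gene body (left) and within 1 kb of the TSS (right) of each gene, for input DNA (grey), Ser5 untreated (blue) and Ser5 LPS (red), with exact Poisson 95% intervals. In the gene bodies Ser5 LPS lies above Ser5 untreated in all 5 genes without overlap of the intervals, from 18.1 in Irgm1 to 0.633 in Tgtp1, while untreated and input overlap in Igtp, Iigp1 and Tgtp1.

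Gene-body levels after LPS had the order Irgm1, Irgm2, Igtp, Iigp1, Tgtp1, and the untreated library had the same order. Igtp exceeded Iigp1 by 8.29 times (6.51 to 10.7) after LPS, or by 4.31 times (3.27 to 5.75) per kb of unique positions, while Iigp1 and Tgtp1 did not differ beyond counting error in either library (1.28 times, 0.853 to 1.96, after LPS). Per kb of unique positions Tgtp1 stood above Iigp1 after LPS, by 3.90 times (2.42 to 6.15). The LPS to untreated ratios were in the reverse order apart from Iigp1, from Irgm1 as the lowest over Iigp1, Irgm2 and Igtp to Tgtp1. No neighbours in that order differed beyond counting error, the closest being Iigp1 over Irgm1 at 1.65 times (0.958 to 3.01). Genes further apart did, since the Irgm1 interval of 3.23 to 4.11 lay below those of Irgm2, Igtp and Tgtp1. Those began at 6.30, 6.94 and 4.48. Within 1 kb of the TSS only Igtp over Irgm2, at 1.75 times (1.03 to 3.06), had an interval that leaves out 1 among the 4 neighbouring pairs of ratios.

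Against all genes, the difference was read by a rule of size, a level at least 2 times higher after LPS, for genes with a sum of 10 or more tags in the pair of Ser5 libraries. Of the 17386 protein-coding genes with enough tags in the body, 5.83% were at least 2 times higher and 11.3% at least 2 times lower. Of the 12535 with enough tags at the TSS 5.58% were higher and 14.1% lower. All 5 IRG genes met the rule in both windows, which share the first 1 kb of each gene. They passed the tag minimum in part through the LPS library, since 4 of the 5 had 10 tags in the untreated body alone and 3 of the 5 in the untreated TSS window. The median ratio of the 5 was 7.93 in the body and 5.16 at the TSS, beside 0.874 and 0.831 over all genes with enough tags. By body ratio the genes lay between the 98.3rd percentile (Irgm1) and the 99.8th (Tgtp1) of the 17386 genes with enough tags. By body level after LPS, among all 22350 protein-coding genes, they ranged from the 59.3rd percentile (Tgtp1) to the 98.6th (Irgm1). In untreated cells they ranged from the 15.4th to the 92.0th. These ranks use whole gene lengths, of which 6.49% was unique at 30 bases in Tgtp1.

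**Figure D2:**
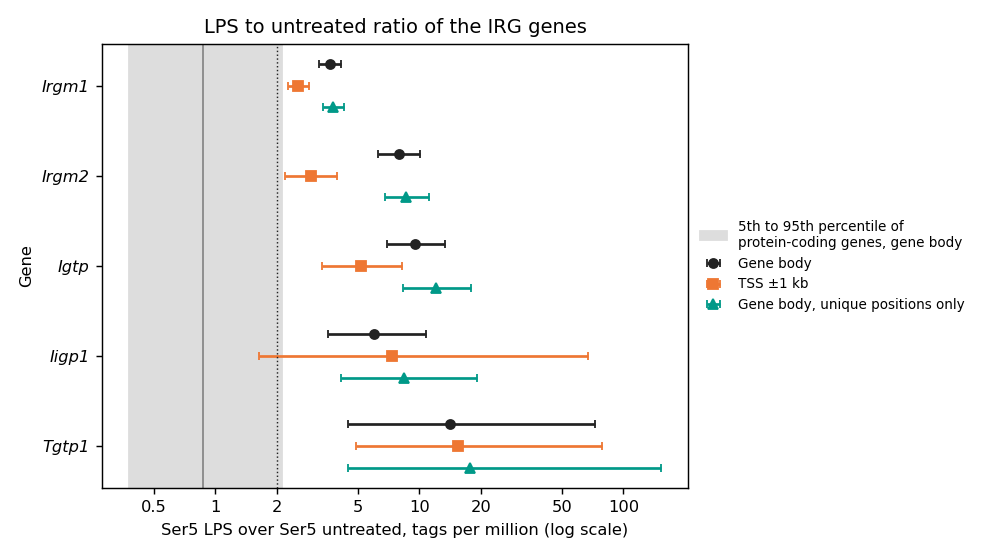
Ratio of Ser5 LPS to Ser5 untreated (log scale) for each gene in the gene body (circles), within 1 kb of the TSS (squares) and in the body at unique positions only (triangles), with exact 95% counting intervals. The grey band spans 0.377 to 2.13, the 5th to 95th percentile of gene-body ratios over 17386 protein-coding genes, the grey line is their median of 0.874 and the dotted line a ratio of 2, and all 15 points lie to the right of the band.

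The peaks that the authors called in each Ser5 library against input were counted next. In untreated cells 1 of the 5 genes, Irgm1, had a peak over its body, and after LPS 4 did, all except Iigp1. Over all protein-coding genes 53.3% had a peak in untreated cells and 50.6% after LPS. The peak score is minus 10 times the log10 of the MACS p-value, and 3100 is a value that 739 LPS peaks share, below the highest of 3233.06. Irgm1 had 5 untreated peaks over 32.8% of its body and 6 LPS peaks over 83.7%. Its promoter peak ran from chr11:48684212 to 48686168 in untreated cells with a score of 2193.94, and from chr11:48684020 to 48686504 after LPS with that shared score of 3100.

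Irgm2 had no untreated peak over its body, but 1 just before it at chr11:58028068-58028514 with a score of 533.85, ending 16 bp upstream of the TSS. It held 60 untreated tags and 89 LPS tags. After LPS 8 peaks covered 84.5% of the Irgm2 body, the strongest at chr11:58033555-58035565, wholly within exon sequence, with a score of 1236.43. Igtp likewise had 1 untreated peak that ended 7 bp upstream of its TSS, at chr11:58012773-58013051 with a score of 123.08, and after LPS 6 peaks over 64.8% of its body with scores up to 458.22. Counting peaks within 1 kb of the TSS in place of the body gave 3 of the 5 genes a peak in untreated cells, and 4 after LPS, beside 48.0% and 45.9% of all protein-coding genes.

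Tgtp1 had a single LPS peak, chr11:48807428-48807829 with a score of 332.53, across the 5′ end of the gene. It held 32 LPS tags and 0 tags in both other libraries. It covers the Tgtp1 sequence printed for the 5′ end of the gene, and not that of the longest coding transcript. Around that inner start Ser5 LPS had 6 tags, Ser5 untreated 0 and the input 2 within 1 kb, where 12.5% of 30-base positions were unique. Iigp1 had no peak in either library within 5 kb of the gene.

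**Figure D3:**
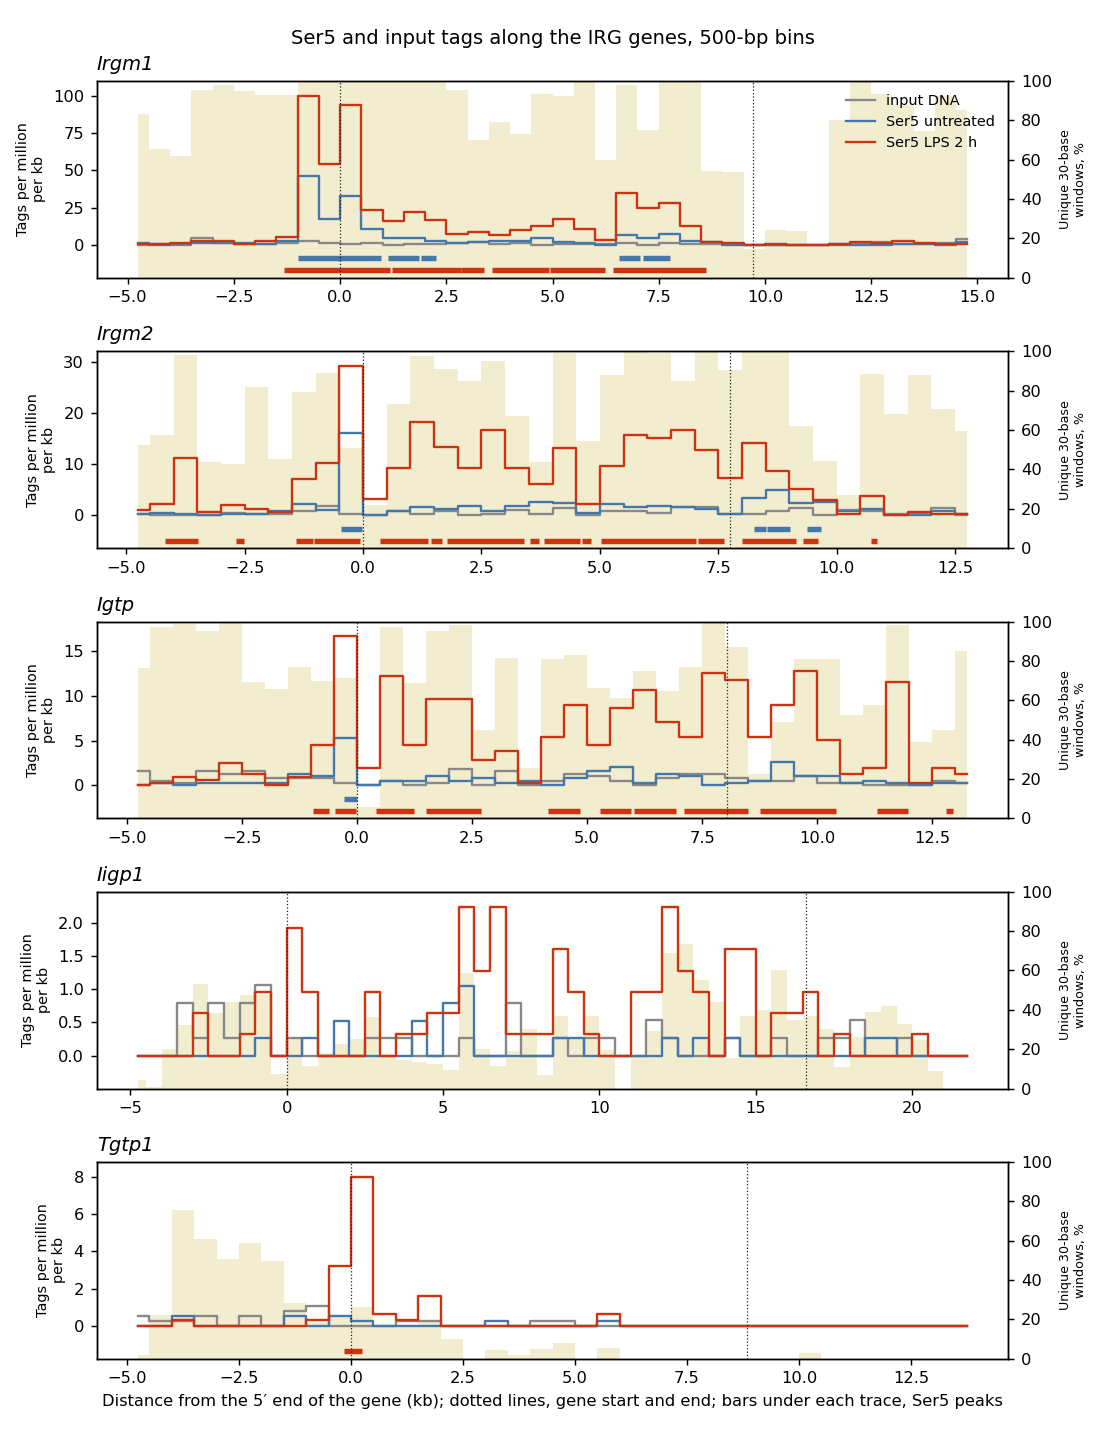
Scaled tags per kb in 500-bp bins from 5 kb before to 5 kb after each gene, by distance from the 5′ end of the gene, for input (grey), Ser5 untreated (blue) and Ser5 LPS (red). Bars under the traces are Ser5 peaks, dotted lines the gene ends and the shaded area the percent of unique 30-base positions (right axis). Irgm1 has its highest bins within 1 kb of the start, Irgm2 and Igtp show untreated signal just before the start and LPS signal along the gene, and in Tgtp1 the first bin of the gene is the highest after LPS, with 25 tags.

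Along the genes the place of the tags differed. In Irgm1 the bin with most tags began 1000 bp before the TSS, with 175 untreated and 312 LPS tags, and the first 1 kb of the gene held 45.1% (39.9 to 50.4, exact binomial) of untreated body tags and 33.3% (30.5 to 36.1) of LPS body tags on 10.3% of the length. In Irgm2 and Igtp the highest bin of both libraries was the one just before the TSS, with 61 and 91 tags in Irgm2 and 20 and 52 in Igtp. The next bin, the first of the gene, dropped to 0 untreated and 10 LPS tags in Irgm2, and to 0 and 6 in Igtp. In these bins 22.1% and 5.9% of the 30-base positions were unique, so the drop and the gap between peaks there lie where few tags could be kept, and the share of either was not tested. In Tgtp1 27 of 35 LPS body tags, 77.1% (59.9 to 89.6), fell in the first 1 kb, and 13 of its 18 bins held no LPS tag. From 2 kb into Tgtp1 on, 10.0% or fewer of the 30-base positions of any bin were unique, against 26.4% in the first, so few tags could be kept there. In Iigp1 the LPS tags were spread thinly, with 7 tags in its fullest bins.

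The body beyond its first 1 kb had a larger LPS to untreated ratio than the TSS window in Irgm1, where it was 1.74 times (1.42 to 2.13) as large, and in Irgm2, 2.60 times (1.77 to 3.81). In Igtp it was 1.69 times (0.943 to 2.98) as large, which does not pass counting error, and in Iigp1 and Tgtp1 the counts were too few to tell, with intervals of 0.0778 to 4.08 and 0.0314 to 4.48. Unique positions in the TSS window fell from 70.5% at 45 bases to 58.7% at 30 in Irgm2, and from 67.4% to 61.0% in Igtp. At unique positions only, the TSS ratio was 3.99 (2.83 to 5.73) in Irgm2 and 8.53 (4.94 to 15.8) in Igtp. The whole-body ratios there were 8.63 (6.78 to 11.1) and 12.0 (8.35 to 17.9). The part of tag length in the contrast was not tested.

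The 7436 bp between Igtp and Irgm2 also held Ser5 tags. There were 28 in the input, 103 in Ser5 untreated and 342 in Ser5 LPS, and the LPS to untreated ratio was 4.05 (3.24 to 5.09). In untreated cells 1 peak lay wholly inside this stretch, the one before Irgm2, and after LPS 5 did. The LPS peak at chr11:58024351-58025036, whose midpoint is at -3836.5 bp from the Irgm2 TSS, held 0 input, 2 untreated and 40 LPS tags. The peak after Igtp, chr11:58021813-58023462, held 9, 19 and 100. On the other side of Irgm2 the 5 kb after the gene had 23, 63 and 116 tags, with 3 untreated peaks there. Before Irgm1 the 5 kb upstream held 53, 276 and 537 tags, with most of the Ser5 tags in the last 1 kb before the TSS. The 500-bp bins there held 175 and 65 untreated and 312 and 170 LPS tags, where the promoter peak lies. No bin further upstream held more than 11 untreated, 17 LPS or 17 input tags.

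Counts were repeated at positions whose 30, 36 and 45-base sequences were each unique, so that all 3 libraries were read at the same places. Body tags then numbered 351 and 1092 (untreated and LPS) in Irgm1, 77 and 545 in Irgm2, 32 and 316 in Igtp, 9 and 62 in Iigp1 and 2 and 29 in Tgtp1. The ratios were 3.79 (3.36 to 4.29), 8.63 (6.78 to 11.1), 12.0 (8.35 to 17.9), 8.40 (4.15 to 19.2) and 17.7 (4.47 to 153), in that order of genes. All 5 were higher than over whole bodies, and every one lay within the interval of the whole-body value. Levels per kb of unique positions after LPS were 21.2 in Irgm1, 13.9 in Irgm2, 8.93 in Igtp, 2.07 in Iigp1 and 8.08 (5.41 to 11.6) in Tgtp1. On this scale Tgtp1 was not below Iigp1 but close to Igtp (7.98 to 9.98), although it rests on 0.574 kb of unique positions, most of its tags being near the 5′ end.

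**Figure D4:**
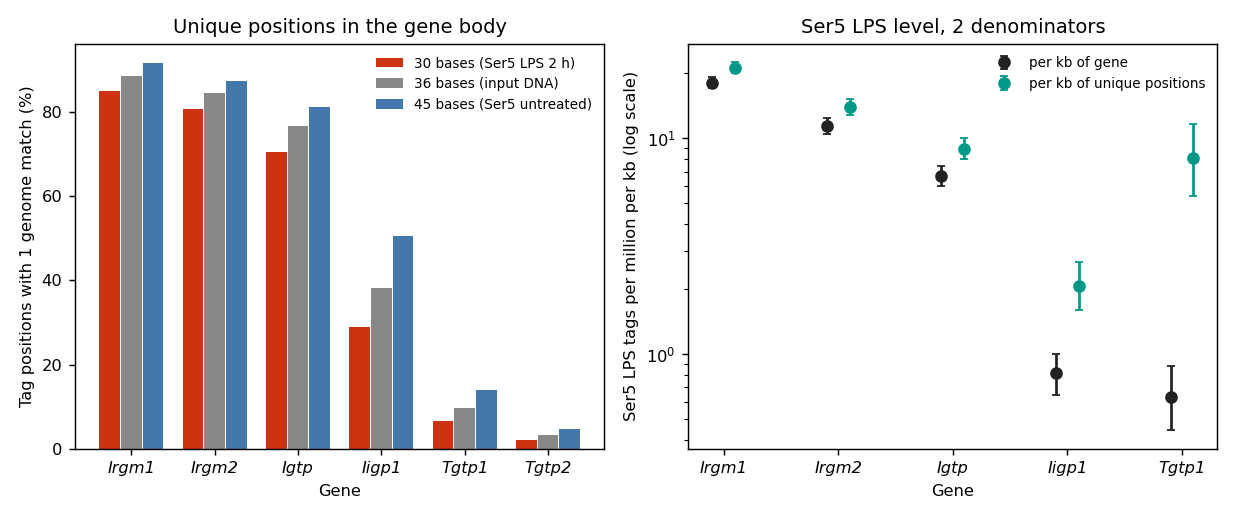
Left, percent of tag positions in the gene body with 1 match in mm9, at the tag length of each library, for the 5 genes and the paralog Tgtp2, from 91.5% in Irgm1 at 45 bases to 2.17% in Tgtp2 at 30. Right, scaled Ser5 LPS tags per kb of gene (black) and per kb of unique positions (green), log scale, with Poisson 95% intervals, where Tgtp1 moves from 0.633 to 8.08.

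Other IRG genes differed among themselves. Of 12 looked up, 8 reached that minimum in the body, and 3 were at least 2 times higher and 1 at least 2 times lower, with a median ratio of 1.53. The shares over all protein-coding genes with enough tags were 5.83% and 11.3%. Gm12250, annotated as a pseudogene in GENCODE M1 and known as Irgb10, lies 9357 bp before Igtp and had 36 input, 57 untreated and 299 LPS body tags, a ratio of 6.39 (4.80 to 8.64). Tgtp2 had 2 untreated and 17 LPS tags and a ratio of 10.4 (2.46 to 92.4). It reached the minimum only with its LPS tags, and 2.17% of its 30-base positions were unique. Gm4951, near Iigp1 on chromosome 18, had 24 untreated and 94 LPS tags with a ratio of 4.77 (3.02 to 7.82). Gm5431, the gene before Irgm1, had 70 and 107 tags (1.86, 1.37 to 2.56). Gm12185, which overlaps Tgtp1, had 47 and 46 (1.19, 0.777 to 1.83), and Irgq 161 and 154 (1.17, 0.929 to 1.46). Irgc1, a testis gene, had 19 and 1 (0.0641, 0.00154 to 0.403), and 9930111J21Rik1 had 6 and 4 (0.812, 0.169 to 3.43). With 11 input tags, untreated Irgc1 was 1.71 times (0.773 to 3.97) input scaled to all tags, not beyond counting error. Of the others 9930111J21Rik2 had 0 and 5 tags, Gm12187 4 and 1, Gm4841 1 and 1 and F830016B08Rik 8 and 1, all under the minimum.

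Ifi47, an interferon-induced IRG gene that the list left out and that was looked up after its values were seen, lies within the same annotated span of Olfr56 as Tgtp1. It had 153 input, 160 untreated and 744 LPS body tags, with a ratio of 5.67 (4.77 to 6.77). Within 1 kb of its annotated TSS the ratio was 1.32 (0.821 to 2.12). The Olfr56 span itself had 339 untreated and 1358 LPS tags, a ratio of 4.88 (4.33 to 5.52). Without Tgtp1, Tgtp2 and Ifi47 it kept 174 untreated and 562 LPS tags and a ratio of 3.94 (3.32 to 4.69). That rest still includes the listed genes 9930111J21Rik2 and Gm12187. It also includes the 5 kb after Ifi47, which held 52 untreated and 246 LPS tags, a ratio of 5.77 (4.26 to 7.93).

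Related and upstream genes were chosen with earlier results known. Of the guanylate-binding proteins, the other large family of interferon-induced GTPases, 7 of 10 measured members were at least 2 times higher, with a median ratio of 6.53. Over all protein-coding genes with enough tags the share was 5.83% and the median 0.874. Gbp6 (2 untreated and 10 LPS tags) and Gbp11 (5 and 9), both counted as higher, reached the minimum only with their LPS tags. The median lies between Gbp1 and Gbp6. Gbp5 stood at 71.6 (51.8 to 102), Gbp2 at 45.8 (31.7 to 68.7) and Gbp1 at 6.97 (4.20 to 12.2), the last with 112 input, 18 untreated and 103 LPS tags. Scaled to all tags, Ser5 LPS at Gbp1 was 1.11 times (0.840 to 1.46) input. All of the 10 other interferon-induced genes were at least 2 times higher, with a median of 14.2, from Rsad2 at 90.6 (79.0 to 105) and Cxcl10 at 89.1 (68.3 to 118) to Usp18 at 3.80 (3.48 to 4.15). The ratios of the 5 IRG genes thus lay within the range of that list, 3.80 to 90.6, apart from Irgm1 at 3.64.

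In the interferon signalling list 8 of 18 genes were at least 2 times higher, 1 was at least 2 times lower and 9 were neither, with a median of 1.38. Over all protein-coding genes with enough tags 5.83% were higher and 11.3% lower, with a median of 0.874. The kinase Jak2 had 304 untreated and 1288 LPS tags (5.16, 4.55 to 5.87) and the transcription factor Irf1 525 and 2175 (5.05, 4.59 to 5.56), while the myeloid factor Irf8 had 1428 and 481 (0.411, 0.369 to 0.456). Ifnb1, the interferon gene, had 3 and 26 tags. Of 12 autophagy conjugation genes, whose products help place IRG proteins on vacuoles, 11 were neither higher nor lower by 2 times. Their median of 0.914 was close to the 0.874 of all genes with enough tags, most of which were likewise neither. The exception was the cargo receptor Sqstm1 with 1149 and 4819 tags (5.11, 4.79 to 5.46). Map1lc3b had a ratio of 1.05 (0.802 to 1.36) and Gabarapl2 0.656 (0.475 to 0.899).

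**Figure D5:**
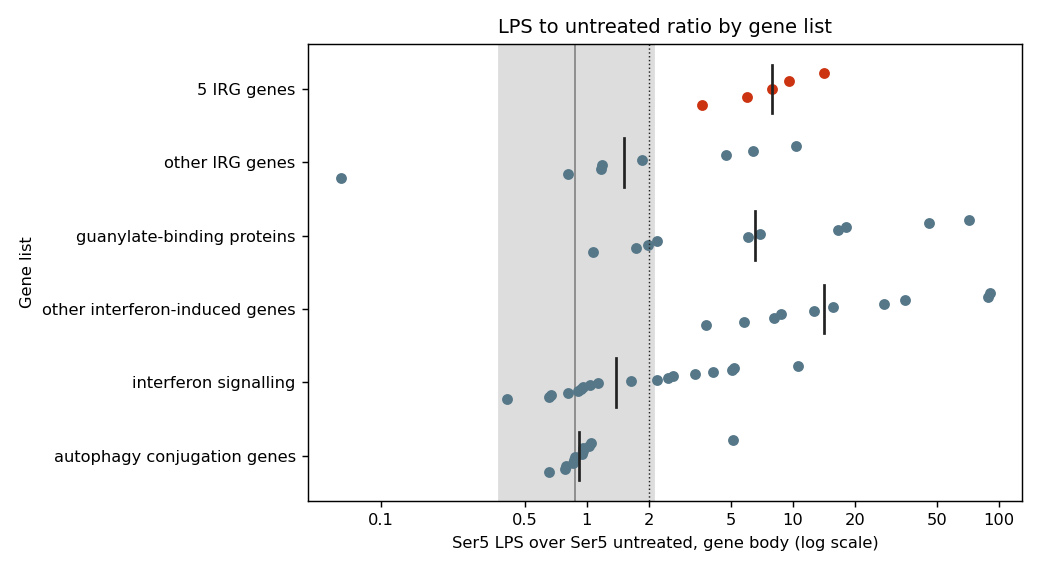
Gene-body ratio of Ser5 LPS to Ser5 untreated (log scale) for each gene with 10 or more tags in the Ser5 libraries combined, by list. Black bars are list medians, 7.93 for the 5 IRG genes, 14.2 for other interferon-induced genes and 0.914 for autophagy conjugation genes. The grey band spans 0.377 to 2.13, the 5th to 95th percentile of 17386 protein-coding genes.

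The protein-coding genes closest to the mean of the 5 IRG genes in both Ser5 libraries and both windows, by Euclidean distance over 4 log2 levels, were Kcnrg (0.439), Gm3086 (0.491) and Adora2a (0.624). Adora2a, a receptor for adenosine, had 55 untreated and 451 LPS body tags, a ratio of 9.99 (7.54 to 13.5). Igtp was the IRG gene nearest to that mean, at 0.830, and Irgm1 the farthest, at 6.18.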

How the data were processed

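Ser5-phosphorylated Pol_II ChIP-Seq (untreated and LPS) and input DNA were analysed from aligned tags and peak lists. The authors trimmed 76-base reads, used Bowtie against mm9, where a tag had to match a single place and could carry up to 2 mismatches, and called peaks per Ser5 library against input with MACS at p = 1e-05. Tool versions are not given in the sources used here. The deposited tag files hold positions only, and the deposited peak score is minus 10*log10 p. The deposited tags span 45 (Ser5 untreated), 30 (Ser5 LPS) and 36 (input) bases, and the study's methods give the lengths of the Ser5 libraries the other way round. The labels were followed; exchanged labels would invert every ratio. All 10 other interferon-induced genes were higher in the library labelled LPS, by 3.80 to 90.6 times. Deposited tag positions were read as 1-based, which could be off by 1 base.

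Each tag stood for its 5′ end, and counts were scaled to the library's tags on chromosomes 1 to 19 and X, 7616771 in Ser5 untreated, 6249819 in Ser5 LPS and 7533308 in input. Duplicate tags were kept. Intervals are exact Poisson for counts and exact conditional for ratios, and cover counting error only; a count of 0 was replaced by 0.5 in the size rule. Ratios of 2 ratios have exact conditional odds ratio intervals. Uniqueness was found by matching each 30, 36 and 45-base sequence of the loci to mm9 on both strands with up to 2 mismatches, and 96.3% to 97.3% of the tags of the loci fell on unique positions, against 47.1% to 58.8% of all positions. Members, lists and alternatives were chosen with earlier results of these data known. Beside the 5 genes, the text names all listed IRG genes, the 3 nearest genes and genes that overlap a member. Of each other list it names the 2 highest and the lowest ratios among genes with at least 50 body tags. Ifnb1, Ifi47, Gbp6 and Gbp11 were added after their values were seen. The Ser5 to input values scaled to tags outside peaks and the comparisons of levels per kb of unique positions were likewise added after the data were seen. So was the Olfr56 span without Tgtp1, Tgtp2 and Ifi47. Of the listed symbols Gbp2b, Adgre1 and Spi1 found no match. Counting, interval and matching functions were tested on simulated data. The work used Python 3.11.15, numpy 2.4.6, pandas 2.3.3, scipy 1.17.1, numba 0.67.0 and matplotlib 3.10.9.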

Additional observations from a re-analysis of the deposited data

How the results depend on the processing

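No paired analysis was possible because each condition had 1 library. The alternatives were scaling to tags outside the Ser5 peaks, 1 tag per position and strand, 5′ ends moved 75 bp downstream, unique positions only, input subtracted, the gene without its first 1 kb, a TSS window of 500 bp, peaks with a score of at least 100 or with their midpoint in the gene, and the TSS of the longest coding sequence. All 5 genes were at least 2 times higher under every one that gives a ratio. So were all 65 single-gene ratios, of which 54 stayed within the counting interval of the main value. The minimum of 10 tags was not applied to these 65 ratios. Under it were Iigp1 with 0 and 6 tags (untreated and LPS) in the 500-bp TSS window and 1 and 8 at unique TSS positions. Tgtp1 had 0 and 6 around the start of the longest coding sequence. Where the untreated count was 0, the ratio rests on the 0.5 set in its place. The median body ratio, 7.93, was 77.2 with input subtracted, where Igtp and Iigp1 kept less than 1 untreated tag and Tgtp1, at -1.04, was set to 0.5, and 5.71 without the first 1 kb of the genes, where Tgtp1 had 2 and 8 tags and a ratio of 4.87 (0.973 to 47.1). The median TSS ratio, 5.16, was 8.53 at unique positions only and 3.53 with the 500-bp window, where Irgm2 stood at 2.04 (1.47 to 2.85). With peaks counted within 1 kb of the TSS, 3 genes in place of 1 had an untreated peak. With genes of at least 1 tag, 8.80% (body) and 14.9% (TSS) of all genes were at least 2 times higher. Scaling to tags outside peaks multiplied all LPS to untreated ratios by 1.08. Counts were lowest in the bodies of Iigp1 and Tgtp1, with 17 and 3 untreated tags, where 28.8% and 6.49% of 30-base positions were unique.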
